A study of Homo sapiens with 24 samples.

Results

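The proteasome subunits and assembly factors were taken as a list of 40 human genes, and a gene was included where its Entrez ID had a row in the count table. A total of 37 of the 40 genes had a row, and all 37 passed the filter on low counts, among 11152 genes tested. They comprise 7 alpha and 6 beta subunits of the core particle, 6 ATPase and 11 non-ATPase subunits of the regulatory particle, 4 activator genes and 3 assembly factors. PSMB3, a core subunit, and PSMB8 and PSMB9, the inducible immunoproteasome subunits, were not analysed here. RNA came from HepG2 cells, an established line from a human liver cancer, that carried Cas9 with 1 of 3 guides. The guide sgCtrl (sgAAVS168 in the treatment label) cuts the AAVS1 safe-harbour site, and sgKeap1-1 and sgKeap1-2 cut KEAP1. All 3 guides were delivered by lentivirus followed by puromycin selection, so sgCtrl cells carry Cas9 as well. Whether the lines were clones or mixed populations is not given in the sources used here. Cells of each guide were transfected with siNC, a non-targeting siRNA, or with sitfeb/sitfe3, which holds pooled siRNAs directed at TFEB and TFE3, and RNA was extracted after 72 hours. Each of the 6 guide-by-siRNA groups holds 4 libraries, 24 in all.

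The proteasome degrades proteins that carry ubiquitin. Its core particle is a barrel of alpha rings, which gate the entry, and beta rings, which hold the proteolytic sites. The regulatory particle caps the barrel, binds and removes ubiquitin, and unfolds the substrate with a ring of ATPases, whereas activators such as PSME1 to PSME4 open the gate without ATP. Transcription of subunits is known to be raised by NRF1 (gene NFE2L1) when the proteasome is inhibited, and some subunit genes are known to respond to NRF2 (gene NFE2L2). NRF2 is itself degraded by the proteasome through the ubiquitin ligase adaptor KEAP1. The question addressed was whether RNA of core, regulatory and activator subunits differed with the KEAP1 guides, and whether it differed with knockdown of TFEB and TFE3, transcription factors that drive lysosomal genes.

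Promoter sequence was examined first, because NRF2 and NRF1 bind the antioxidant response element, whose core is TGACNNNGC, and TFEB and TFE3 bind the CLEAR element, whose core is TCACGTGA. RefSeq promoter windows of GRCh38.p14, with 250 bases before and 50 bases after the start site, matched 35 of the 40 genes in 43 windows. The antioxidant response element core occurred on either strand in 13 of the 43 windows (30.2%), against 13.3% of all 35116 windows. These 13 windows belonged to 13 genes. The CLEAR core occurred in 0 of the 43 windows, against 0.98% of all. A CCAAT box was present in 41.9% of the windows, against 34.6% of all. The interferon response element core was present in 11.6%, against 3.57% of all. A match is a string of letters, not evidence of binding, and some genes have several windows. Among the genes whose RNA changed with the KEAP1 guides, PSMD12 and PSME4 (higher) and PSME1 and PSME2 (lower) hold the antioxidant response element core upstream of the start site. These stretches are printed 5′ to 3′ on the strand of the gene, with the core, or its reverse complement in PSME4, in capitals. They lie at chr17:67366704-67366772 (minus strand, PSMD12), chr2:53970994-53971057 (minus strand, PSME4), chr14:24136078-24136146 (plus strand, PSME1) and chr14:24146747-24146815 (minus strand, PSME2) of GRCh38.p14.
PSMD12: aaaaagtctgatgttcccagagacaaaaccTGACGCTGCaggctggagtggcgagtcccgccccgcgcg
PSME4: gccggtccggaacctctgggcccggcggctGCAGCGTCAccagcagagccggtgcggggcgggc
PSME1: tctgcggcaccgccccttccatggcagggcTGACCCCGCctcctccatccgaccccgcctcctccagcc
PSME2: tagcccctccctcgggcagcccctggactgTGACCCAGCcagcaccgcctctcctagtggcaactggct
The same core stands before genes that rose and before genes that fell. POMP, whose increase had the smallest adjusted p of all members, holds no match to this core in its window. Sequence outside the windows was not searched, and a link between a match and an RNA change was not tested. PSME2 also holds an interferon response element core that starts 28 bases before its start site.

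Libraries held 3527000 to 4600951 reads, and the members took 0.883% to 1.06% of the reads of a library. On the first principal component of all genes (33.7% of the variance) the 8 sgCtrl libraries lay apart from the 16 libraries with a KEAP1 guide. KEAP1 RNA was 84.9 ± 6.69 reads per 1000000 reads of the library (CPM; mean ± SD, n = 4) in siNC sgCtrl, 53.8 ± 6.17 with sgKeap1-1 and 77.4 ± 3.89 with sgKeap1-2. The reads lie near the 3′ end and do not read the cut sites, so this level does not show editing. The NRF2 target NQO1 rose by 1.33 on the log2 scale (SE 0.049, adjusted p = 1.6e-16), averaged over guides and siRNAs, and GCLM and TXNRD1 rose by 1.98 and 2.35. NFE2L2 fell by 0.24 (adjusted p = 0.040), and NFE2L1 did not pass the threshold (log2 fold change -0.06, adjusted p = 0.61). In sgCtrl cells TFE3 was 33.3 ± 3.33 CPM with siNC and 11.9 ± 5.25 CPM with sitfeb/sitfe3, and TFEB was 10.9 ± 4.57 and 2.64 ± 0.89 CPM. TFE3 fell with the knockdown in all 3 guide backgrounds, and TFEB passed the threshold in the 2 KEAP1 guide backgrounds. Hepatocyte markers were present, and 7 of 9 fell with the KEAP1 guides. Their summed level ranged from 23464 to 34412 CPM in sgCtrl libraries and from 12948 to 19362 CPM in the others. The leukocyte markers CD14 and CD68 summed to at most 8.41 CPM and the fibroblast marker PDGFRB reached 11.6 CPM in any library. The part of the hepatocyte marker shift in the subunit changes was not tested. In bulk RNA, fewer cells of a type and less RNA per cell cannot be told apart.

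The second principal component (13.3%) set apart 2 libraries, sgKeap1-1 under siNC replicate 1 and sgKeap1-2 under sitfeb/sitfe3 replicate 1, and the subunits of the core and regulatory particles diverged strongly in both. In the first of these, 6 of the 37 members were more than 1.5-fold below the mean of the other 3 libraries of the group and 5 were more than 1.5-fold above it. In the second, the numbers were 7 and 4. PSMA1, PSMA3, PSMA5, PSMD6 and PSMD11 were low in both, and PSMA6, PSMC1 and PSMC3 were high in both. PSMA5, for instance, was 24.2 CPM in the first library and 74.2, 76.7 and 77.9 CPM in the others of its group. PSMC1, by contrast, was 320.2 CPM in the second library and 109 to 121 CPM in the others. The 22 libraries other than these had at most 3 members past this limit. The second library also had the fewest reads (3527000) and the largest share of reads without an Entrez ID (2.57%). MTRNR2L8 took 4.42% of its reads, whereas the top gene of any other library took at most 1.23%. The first library lay within the range of the others on these measures. Counts below are given with all 24 libraries, which are the values meant where nothing else is said. They are also given without the 2 libraries that stand apart, an alternative chosen after seeing the data.

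**Figure D1:**
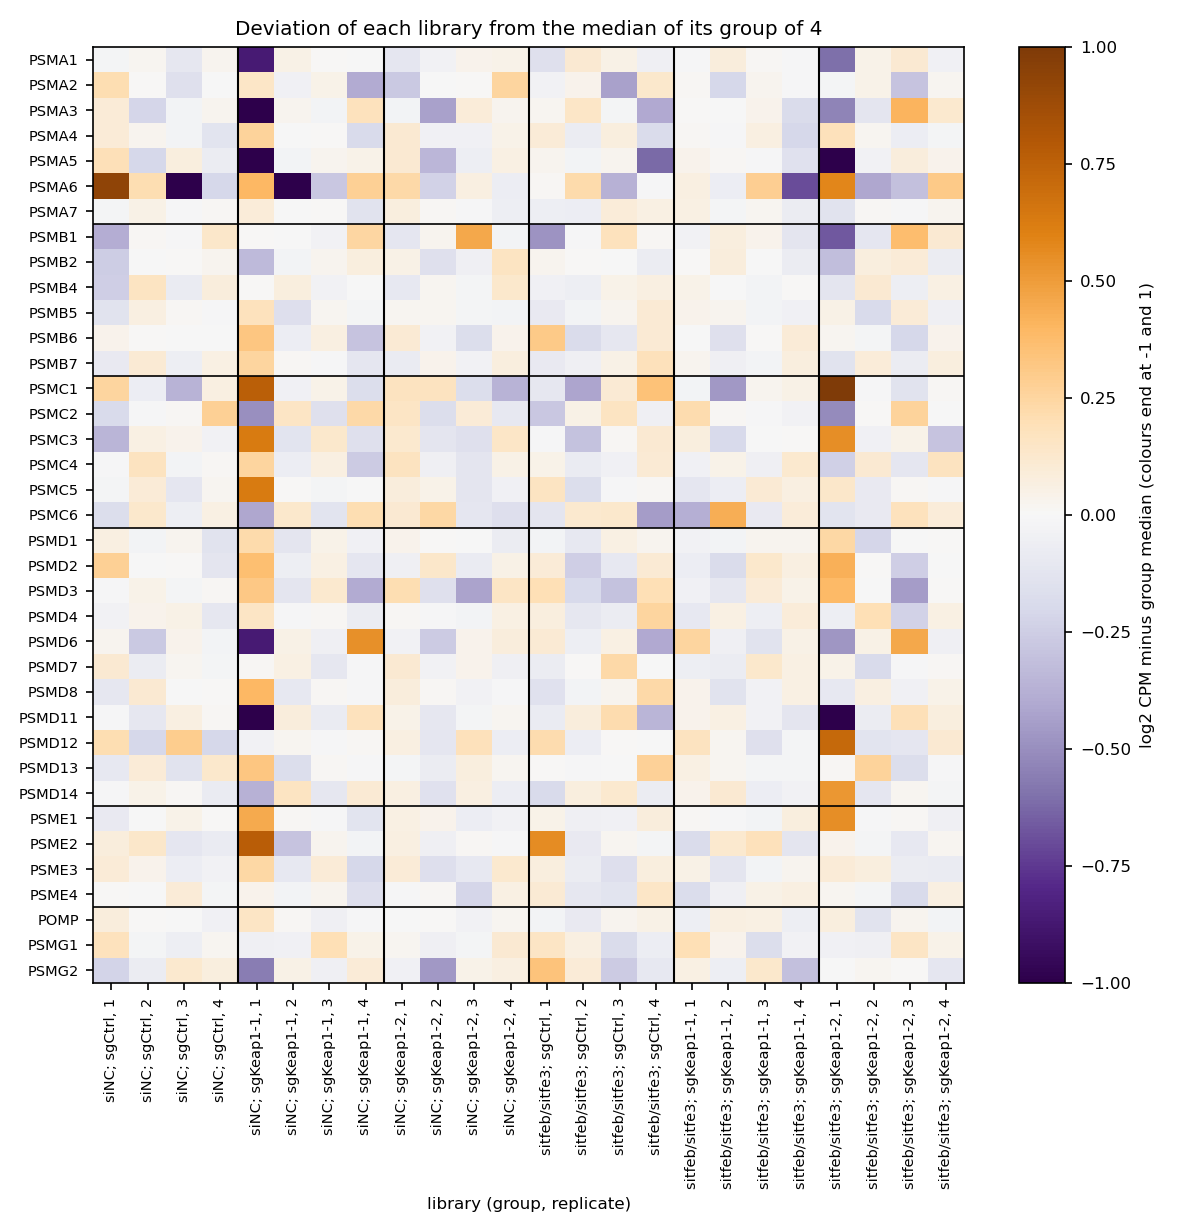
Deviation of log2 CPM from the median of its group, for 37 members (rows, by subunit class) in 24 libraries (columns, by group and replicate). Dark cells of both colours gather in sgKeap1-1 under siNC replicate 1 and sgKeap1-2 under sitfeb/sitfe3 replicate 1, and PSMA6, with 9 to 39 reads per library, varies in every group.

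Subunit RNA was mostly slightly higher in cells with a KEAP1 guide, and the proteasome activator PSME1/PSME2 was lower. Averaged over both guides and both siRNAs, 11 of 37 members were higher (29.7%) and 2 were lower (5.41%) at an adjusted p under 0.05. Over all genes tested, 15.2% were higher and 15.6% lower in this comparison. The median log2 fold change of the members was 0.13, against -0.00 for all genes, and 31 of 37 were above 0. Changes were small: the members that rose did so by 10.9% to 29.0%. Without the 2 libraries that stand apart, 19 members were higher and 2 lower, against 19.3% and 18.7% of all genes, and the median was 0.11. All 13 members called with 24 libraries were also called there. The summed level of the members was 9174 ± 145 CPM in siNC sgCtrl, 10339 ± 564 CPM with sgKeap1-1 and 9765 ± 214 CPM with sgKeap1-2 (SD, n = 4). After sitfeb/sitfe3 it was 9450 ± 287, 10290.0 ± 109 and 9973 ± 151 CPM in the same order. Within each siRNA, the range of the libraries with a KEAP1 guide lay above that of the sgCtrl libraries. P-values measure the spread between these libraries, which the labels do not tie to separate cultures.

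**Figure D2:**
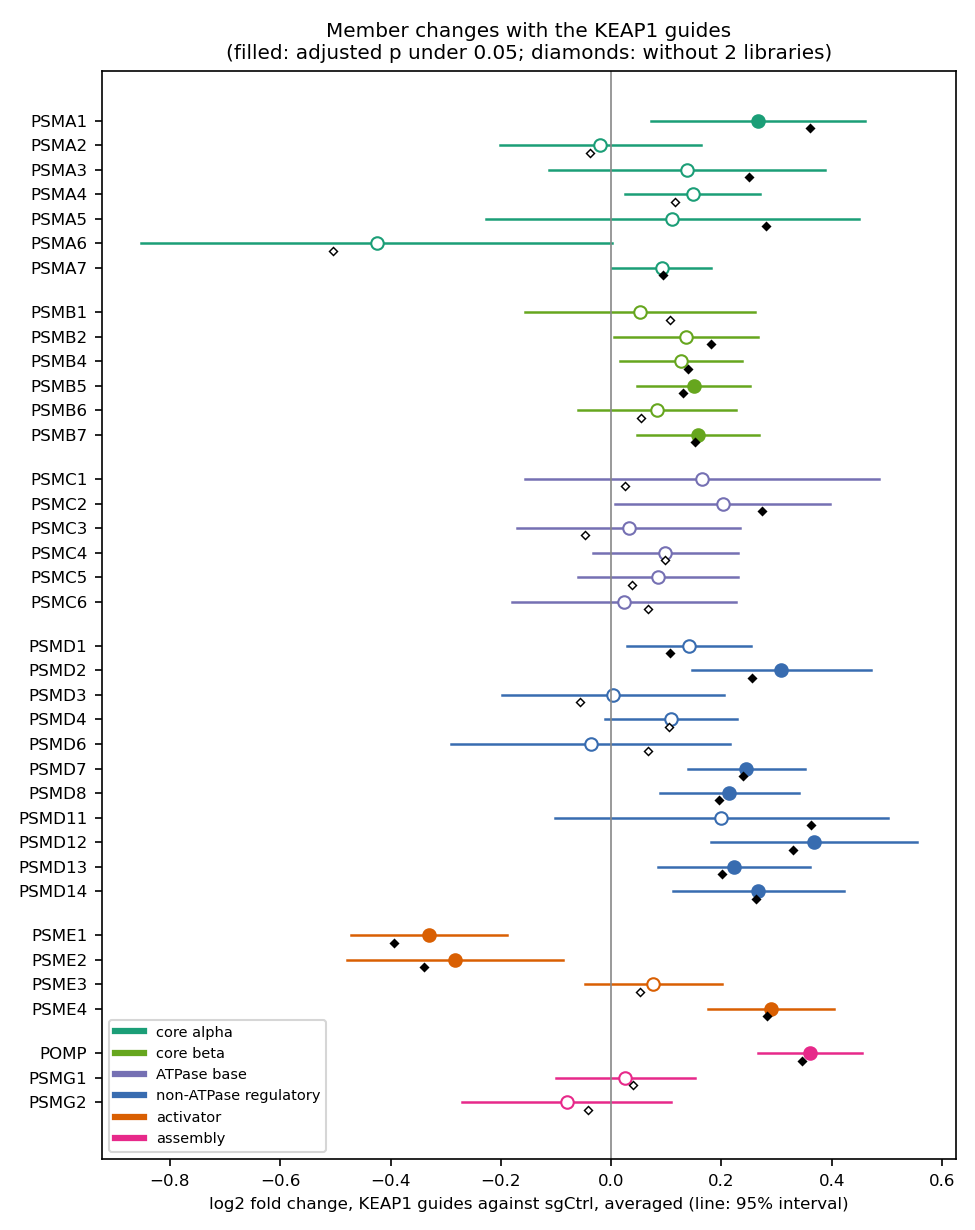
Log2 fold change of each of 37 members with the KEAP1 guides against sgCtrl, averaged over guides and siRNAs (circles, with 95% intervals, coloured by class; filled at an adjusted p under 0.05). Diamonds give the value without the 2 libraries that stand apart: 11 members are filled on the right and PSME1 and PSME2 on the left with all libraries, and 19 and 2 without them.

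Of the 7 alpha subunits of the core, 1 rose and none fell, with a median log2 fold change of 0.11. This is 14.3% of the class, near the 15.2% of all genes that were higher. PSMA4 was called in DESeq2, with sample quality weights and with the replicate block. PSMA1 was the one that passed. In sgCtrl cells it was 108 to 118 CPM with siNC and 106 to 128 CPM with sitfeb/sitfe3, and it was 82.4, 156, 150.3 and 149.7 CPM in the 4 libraries of sgKeap1-1 under siNC. A total of 14 of the 16 libraries with a KEAP1 guide lay above all 8 sgCtrl libraries, and the 2 that stand apart lay below them. The log2 fold change of PSMA1 was 0.27 (SE 0.094, adjusted p = 0.032), and 0.36 (SE 0.047, adjusted p = 6.4e-07) without those libraries. With 1 library left out at a time the call was lost, at an adjusted p of 0.052 to 0.070, without replicate 3 of siNC sgCtrl, replicate 1 of sitfeb/sitfe3 sgCtrl, replicates 2, 3 or 4 of siNC sgKeap1-1, or replicate 3 of sitfeb/sitfe3 sgKeap1-2. PSMA3, PSMA5 and PSMA7 also passed the threshold without them, with log2 fold changes of 0.25, 0.28 and 0.09. PSMA3 and PSMA5 passed as well without replicate 1 of every group, and PSMA3 with sample quality weights. With all libraries, PSMA3 was at 0.14 (adjusted p = 0.43) and PSMA5 at 0.11 (adjusted p = 0.66). PSMA2 was among the 3 members nearest to no change (-0.02, SE 0.088). PSMA6 had only 9 to 39 reads per library (log2 fold change -0.43, SE 0.21, adjusted p = 0.13), and its depth does not allow a change of this size to be resolved. A further gene model shares the strand of its 3′ end, as is the case for PSMA1 and PSMA2.

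Of the 6 beta subunits, 2 rose (33.3%, against 15.2% of all genes) and none fell. The median was 0.13, and all 6 values were above 0. PSMB5 carries the chymotrypsin-like site, the one that proteasome inhibitors such as bortezomib bind first. It was 702 ± 40.9 CPM in siNC sgCtrl, 831 ± 79.3 with sgKeap1-1 and 750.4 ± 12.8 with sgKeap1-2, and 739 ± 41.5, 787 ± 19.8 and 832 ± 72.8 CPM after sitfeb/sitfe3 (SD, n = 4). The range of sgCtrl overlapped that of sgKeap1-1 and that of sgKeap1-2 within each siRNA. PSMB5 rose by 0.15 on the log2 scale (SE 0.050, adjusted p = 0.023), and PSMB7, which carries the trypsin-like site, by 0.16 (SE 0.054, adjusted p = 0.027). PSMB6, with the caspase-like site, did not pass (0.08, adjusted p = 0.40). Without the 2 libraries that stand apart, PSMB2 and PSMB4 also passed (0.18 and 0.14), as they did with sample quality weights. The calls of PSMB5 and PSMB7 were close to the threshold. PSMB5 was lost without replicate 1 of siNC sgCtrl (adjusted p = 0.063) or of sitfeb/sitfe3 sgCtrl (adjusted p = 0.055), and without replicate 1 of every group (log2 fold change 0.09, adjusted p = 0.13). PSMB7 was lost, at an adjusted p of 0.050 to 0.071, without replicates 1 or 3 of siNC sgCtrl, replicates 1 or 2 of sitfeb/sitfe3 sgCtrl, or replicate 4 of either KEAP1 guide under sitfeb/sitfe3. It was also lost without replicate 1 of every group (0.12, adjusted p = 0.052).

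Of the 6 ATPase subunits of the base, 1 had an unadjusted p under 0.05, as did 4474 of all 11152 genes. None of the 6 passed the threshold in limma-voom, and their median log2 fold change was 0.09. DESeq2 and the quasi-likelihood test of edgeR also called none, whereas the fit with sample quality weights called PSMC2. PSMC2 had the largest value (0.20, SE 0.095, adjusted p = 0.11) and passed without the 2 libraries that stand apart (0.27, adjusted p = 0.0038). PSMC1 is the most uneven of the class. It was 195 CPM in sgKeap1-1 under siNC replicate 1, against 102 to 118 CPM in the other 3, and its log2 fold change was 0.16 with all libraries and 0.03 without the pair. PSMC6 was near no change (0.02, SE 0.099). With all libraries, the 95% intervals of PSMC1, PSMC3, PSMC4, PSMC5 and PSMC6 reach from below to above 0.

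Of the 11 non-ATPase subunits of the regulatory particle, 6 rose (54.5%, against 15.2% of all genes) and none fell. Their median log2 fold change was 0.21. They held 6 of the 11 increases among all members. Without the 2 libraries that stand apart 8 of them rose, as did 8 of the 13 core subunits, against 19.3% of all genes. PSMD12, a scaffold subunit of the lid, was 53.9 to 76.1 CPM in siNC sgCtrl, and 77.4, 80.6, 78.9 and 80.04 CPM in the 4 libraries of sgKeap1-1 under siNC. After sitfeb/sitfe3 it was 61.3 to 74.5 CPM in sgCtrl and 74.9 to 93.6 CPM with sgKeap1-1. With sgKeap1-2 it was 71.1 to 87.7 CPM under siNC, which overlapped siNC sgCtrl. Under sitfeb/sitfe3 it was 138, 77.0, 77.7 and 90.8 CPM with sgKeap1-2, the first value from a library that stands apart. Of the 16 libraries with a KEAP1 guide, 13 lay above all 8 sgCtrl libraries. PSMD12 rose by 0.37 on the log2 scale (SE 0.091, adjusted p = 0.0026), and by 0.33 without the pair. PSMD2, which docks substrate receptors in the base, had a median of 182 CPM in sgCtrl libraries and 222 CPM in the others (log2 fold change 0.31, SE 0.079, adjusted p = 0.0034).

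PSMD14 is the deubiquitinase of the lid and PSMD7 its partner in the same dimer, and both rose. PSMD14 was 107 to 117 CPM in siNC sgCtrl, 98.3 to 142 CPM with sgKeap1-1 and 122 to 141 CPM with sgKeap1-2. Its log2 fold change was 0.27 (SE 0.076, adjusted p = 0.0078), and that of PSMD7 was 0.25 (SE 0.051, adjusted p = 0.00052). For PSMD7, 12 of the 16 libraries with a KEAP1 guide lay above all 8 sgCtrl libraries, and for PSMD14, 14 of 16 did. PSMD8 (0.21, adjusted p = 0.0086) and PSMD13 (0.22, adjusted p = 0.012), structural subunits of the regulatory particle, rose to a similar degree. PSMD13 was at 0.17 (adjusted p = 0.054) without replicate 1 of every group. PSMD11, another lid scaffold, had 202 and 233 CPM in the 2 libraries that stand apart and between 459 and 594 CPM in the other 14 with a KEAP1 guide. It did not pass with all libraries (0.20, adjusted p = 0.33) and passed without the pair (0.36, SE 0.057, adjusted p = 1.1e-05). PSMD11 also passed with sample quality weights and without replicate 1 of every group. PSMD3 had the value nearest to no change of all members (0.00, SE 0.098). Its value was -0.06 without the pair, and neither value passed.

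The activators moved in opposite directions. PSME4 encodes the large nuclear activator that binds the core alone, and it was 240.3, 238, 256 and 236 CPM in the siNC sgCtrl libraries. It was 307, 294, 304 and 267 CPM with sgKeap1-1 and 294, 298, 255 and 309 CPM with sgKeap1-2. Of the 16 libraries with a KEAP1 guide, 14 lay above all 8 sgCtrl libraries. PSME4 rose by 0.29 on the log2 scale (SE 0.055, adjusted p = 0.00019), and by 0.28 without the pair.

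PSME1 and PSME2 encode the alternating subunits of the interferon-inducible activator, which is known for its part in making peptides for antigen presentation. PSME1 was 368, 389, 402 and 392 CPM in siNC sgCtrl and 415, 307, 303 and 279 CPM with sgKeap1-1, and the replicate at 415 is one of the libraries that stand apart. With sgKeap1-2 it was 314, 309, 289 and 296 CPM, below every siNC sgCtrl library. After sitfeb/sitfe3 it was 401 to 441 CPM in sgCtrl, 326 to 349 CPM with sgKeap1-1, and 434, 295, 298 and 287 CPM with sgKeap1-2. In total 14 of the 16 libraries lay below all 8 sgCtrl libraries, and the remaining 2 were the pair that stands apart. PSME1 fell by 0.33 on the log2 scale (SE 0.069, adjusted p = 0.00048), a decrease of 20.5%, and by 0.39 (SE 0.039, adjusted p = 5.7e-09) without the pair.

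PSME2 was more variable. It was 606, 289.6, 362 and 347 CPM in sgKeap1-1 under siNC against 383, 398, 334 and 341 CPM in siNC sgCtrl, and these groups overlapped. With sgKeap1-2 it was 279.9 to 304 CPM, below all siNC sgCtrl libraries. After sitfeb/sitfe3 it was 592, 378, 407 and 398 CPM in sgCtrl, 312, 387, 403 and 326 CPM with sgKeap1-1, which overlapped sgCtrl, and 271 to 298 CPM with sgKeap1-2. It fell by 0.28 (SE 0.095, adjusted p = 0.024), and by 0.34 (adjusted p = 0.00027) without the pair. The call was lost when sitfeb/sitfe3 sgCtrl replicate 1 (adjusted p = 0.088) or siNC sgCtrl replicate 2 (adjusted p = 0.056) was left out. PSME3, which encodes the nuclear relative of PSME1 and PSME2, was 169 ± 8.63 CPM in siNC sgCtrl and 195 ± 27.0 and 179 ± 17.0 CPM with sgKeap1-1 and sgKeap1-2, and did not pass (0.08, SE 0.060, adjusted p = 0.37). EMC9 lies on the opposite strand over the 3′ end of PSME1, and the strand setting of the counting was not given in the sources used here.

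**Figure D3:**
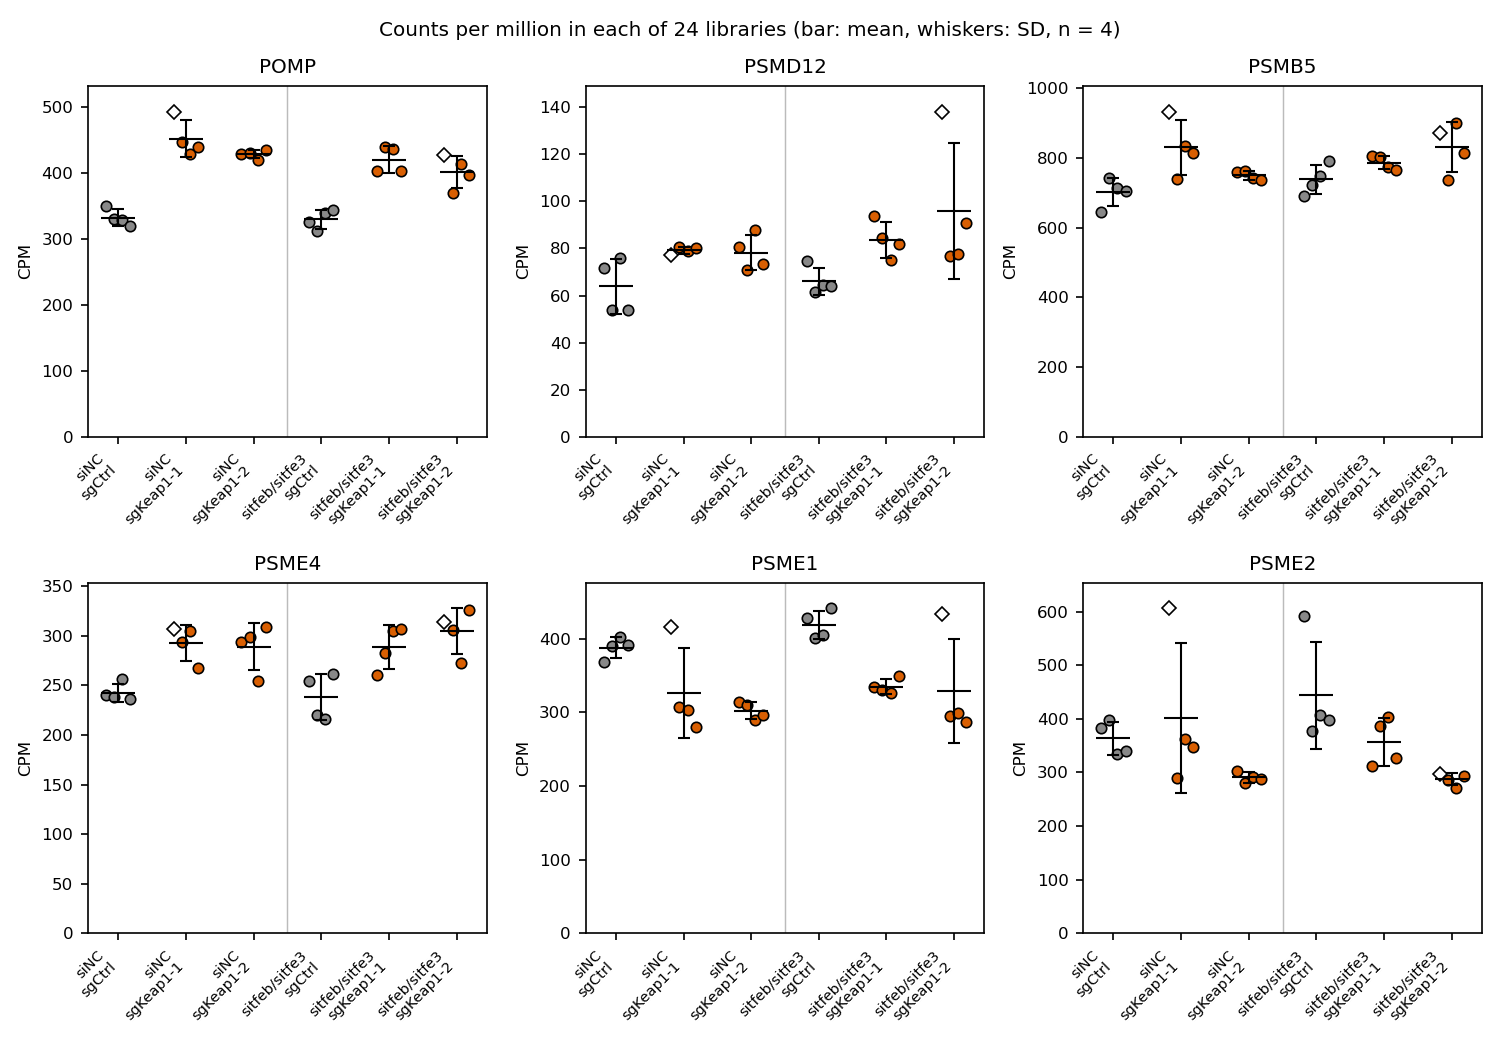
CPM of 6 members in each of 24 libraries (points; grey, sgCtrl; orange, KEAP1 guides; open diamonds, the 2 libraries that stand apart), with the mean and SD of each group (n = 4). The 16 POMP points with a KEAP1 guide all lie above the 8 grey points, and for PSME1 14 of 16 lie below them.

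POMP, the chaperone that matures the beta ring, had the clearest change. It was 349, 330.4, 328 and 319 CPM in siNC sgCtrl, 492, 446, 428 and 439 CPM with sgKeap1-1, and 428, 430.4, 419 and 435 CPM with sgKeap1-2. After sitfeb/sitfe3 it was 325, 311, 338 and 344 CPM in sgCtrl, 402, 438, 436 and 403 CPM with sgKeap1-1, and 426, 369, 413 and 397 CPM with sgKeap1-2. All 16 libraries with a KEAP1 guide lay above all 8 sgCtrl libraries, which 2.8% of all genes tested showed, and POMP was the 1 member of 37 to do so. No member had all 16 below, a pattern seen in 1.62% of all genes. POMP rose by 28.4% (log2 fold change 0.36, SE 0.046, adjusted p = 6.1e-07), and by 0.35 without the pair. PSMG1 and PSMG2 form the dimer that assembles the alpha ring. PSMG1 was 79.9 ± 5.90 CPM in siNC sgCtrl and 76.2 ± 6.22 and 81.3 ± 4.11 CPM with sgKeap1-1 and sgKeap1-2 (log2 fold change 0.03, adjusted p = 0.80). PSMG2 was 47.0 ± 4.94, 44.1 ± 8.33 and 48.1 ± 7.67 CPM in the same groups (log2 fold change -0.08, adjusted p = 0.56), and neither passed the threshold.

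Each guide was then compared with sgCtrl within each siRNA. The comparisons within an siRNA share their sgCtrl libraries. With siNC, sgKeap1-1 gave 3 members higher (POMP, PSMB7 and PSMD8) and 0 lower, against 6.01% and 4.91% of all genes. PSMB7 and PSMD8 both lost this call without the low-count filter, without replicate 1 of every group, and without the pair that stands apart. Here 13 of 37 members had an unadjusted p under 0.05, as did 2587 of all 11152 genes. sgKeap1-2 gave 1 higher (POMP) and 1 lower (PSME1), against 7.58% and 7.14%. With sitfeb/sitfe3, sgKeap1-1 gave 3 higher (POMP, PSMD7 and PSME4) and 0 lower, against 5.69% and 4.81%. sgKeap1-2 gave 6 higher (POMP, PSME4, PSMD2, PSMD7, PSMD12 and PSMD14) and 2 lower (PSME1 and PSME2), against 10.6% and 9.59%. Of these, PSMD2 and PSMD12 lost the call without the pair, and PSMD7 and PSMD14 without replicate 1 of every group, while PSMA1 and PSMD11 gained it in both cases. The shares of members that rose in these 4 comparisons were 8.11%, 2.70%, 8.11% and 16.2%. Single libraries moved these counts: leaving out 1 library at a time gave 1 to 8 members called with sgKeap1-1 and 1 to 3 with sgKeap1-2 under siNC, and 1 to 5 and 5 to 8 under sitfeb/sitfe3. The 8 came without replicate 1 of sitfeb/sitfe3 sgKeap1-2, a library outside that comparison that enters through the shared estimate of the spread. Without the pair of libraries that stands apart, the 4 comparisons gave 4, 7, 10 and 6 members higher and 1, 2, 1 and 2 lower, against 8.14%, 10.6%, 7.82% and 12.3% of all genes higher.

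POMP passed in all 4 comparisons, with log2 fold changes of 0.44, 0.37, 0.35 and 0.28 in the order just given and adjusted p of 0.00015, 0.00091, 0.0021 and 0.0074. PSME4 was at 0.27, 0.25, 0.28 and 0.36, and passed in the comparisons under sitfeb/sitfe3. Its call with sgKeap1-1 under sitfeb/sitfe3 was lost in edgeR. DESeq2 and the fit with sample quality weights also called PSME4 with both guides under siNC. PSME1 was at -0.27, -0.36, -0.32 and -0.38, and passed with sgKeap1-2 under each siRNA. PSME2 was at 0.09, -0.32, -0.30 and -0.60, and only the last passed (SE 0.16, adjusted p = 0.0063). The 2 guides differed by 0 members in the test of their difference, averaged over the siRNAs, against 0.117% of all genes. By unadjusted p under 0.05 there were 2 members, against 951 of all 11152 genes, and DESeq2 and edgeR also called 0 members. PSME2 had the largest difference between the guides (log2 -0.36 for sgKeap1-2 minus sgKeap1-1, SE 0.11, adjusted p = 0.29). It passed when replicate 1 of every group was left out.

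**Figure D4:**
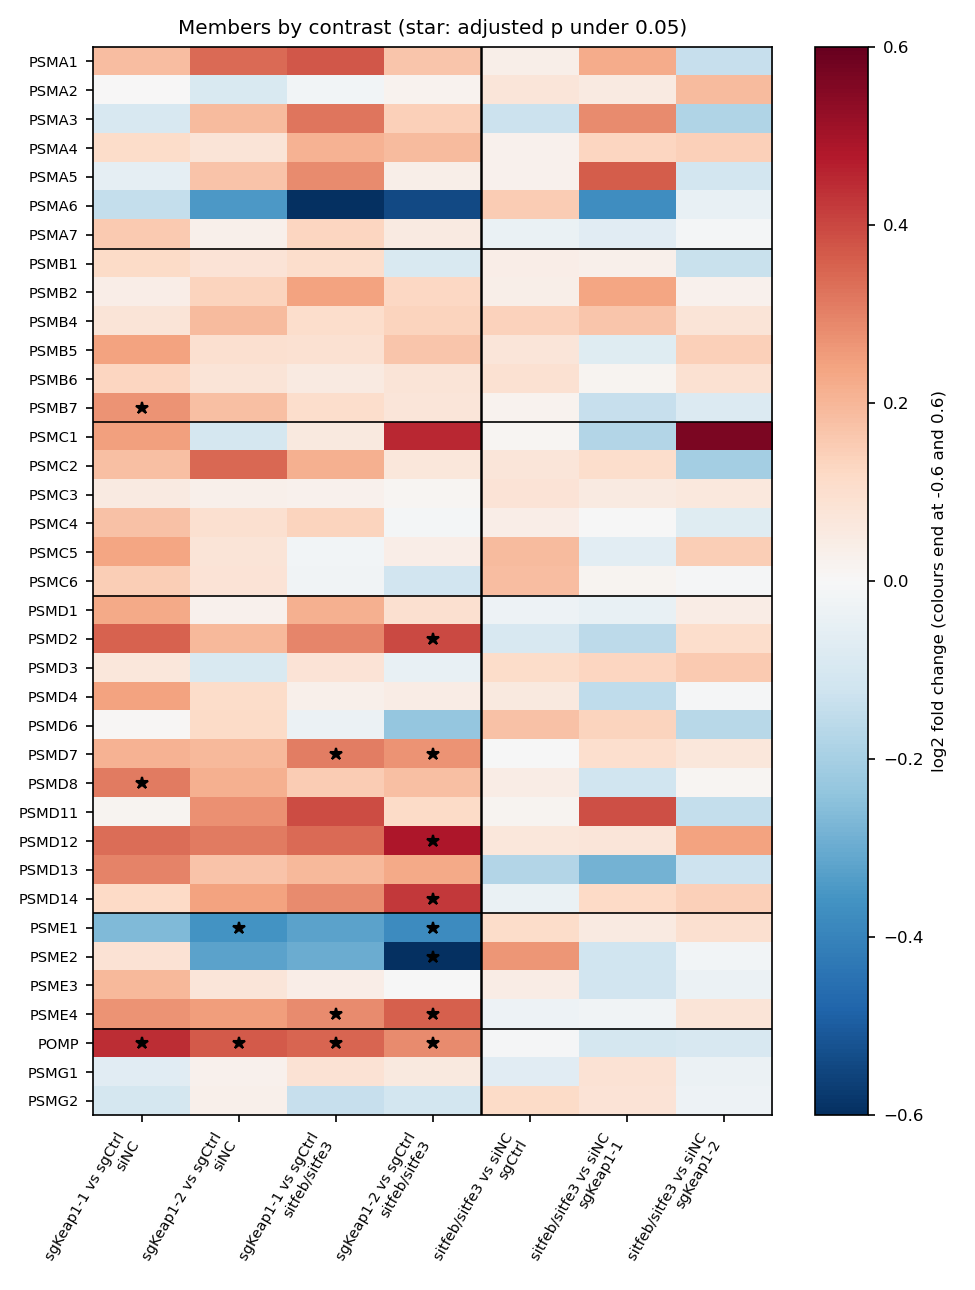
Log2 fold change (colour) of 37 members in the 4 guide comparisons (left of the line) and the 3 knockdown comparisons (right), with a star at an adjusted p under 0.05. POMP has a star in all 4 guide columns, PSME1 in 2, and the knockdown columns have none.

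Knockdown of TFEB and TFE3 gave no detectable change of any member. In sgCtrl, sgKeap1-1 and sgKeap1-2 cells limma-voom called 0, 0 and 0 members, against 0.0179%, 0.0897% and 0.359% of all genes. At an unadjusted p under 0.05 there were 0, 2 and 1 members, against 516, 901 and 1169 of all 11152 genes. DESeq2 and edgeR called 0 members in each. Median log2 fold changes of the members were 0.04, 0.03 and -0.01. The core particle had medians of 0.04, 0.05 and -0.01, and the regulatory particle of 0.04, 0.02 and 0.05. POMP was at -0.01, -0.10 and -0.10, and PSMD7 at -0.00, 0.10 and 0.07. PSMC1 had the most extreme value, 0.57 in sgKeap1-2 cells, with an adjusted p of 0.43. It was 0.22 (SE 0.16, adjusted p = 0.71) without the 2 libraries that stand apart. The test of whether the KEAP1 effect differed between siRNAs called 0 members, as did DESeq2 and edgeR, and 0% of all genes were called. At an unadjusted p under 0.05 there were 0 members, against 349 of all 11152 genes. The interaction estimate was -0.09 (SE 0.091) for POMP, 0.06 (SE 0.11) for PSME4 and -0.04 (SE 0.14) for PSME1. A test that calls few genes overall does not show that the members were unaffected, and the standard errors give the size that the libraries could resolve.

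Other genes around the proteasome were read from lists compiled for the pathway. Of 15 further proteasome genes tested, which include other subunits, assembly factors and ubiquitin-processing partners, 2 rose (13.3%, against 15.2% of all genes) and none fell, with a median of 0.07. ZFAND5, a ubiquitin-binding protein that stimulates the proteasome, rose by 0.67 on the log2 scale (SE 0.084, adjusted p = 5.2e-07). It was 97.8 ± 9.13 CPM in siNC sgCtrl and 131 ± 27.5 and 148 ± 19.7 CPM with sgKeap1-1 and sgKeap1-2. UBE3C, a ubiquitin ligase found on proteasomes, rose by 0.18 (adjusted p = 0.043). Without the pair that stands apart, 5 rose, when 19.3% of all genes were higher, among them ADRM1 and USP14, a ubiquitin receptor and a deubiquitinase of the regulatory particle.

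Of 13 genes tested from the pathway that activates NRF1 or partners it, 6 rose (46.2%, against 15.2% of all genes) and 1 fell, with a median of 0.20. DDI2, the protease that cleaves NRF1 into its active form, fell by 0.51 (SE 0.057, adjusted p = 8.0e-08). It was 119 ± 7.15 CPM in siNC sgCtrl, 87.6 ± 8.17 with sgKeap1-1 and 81.1 ± 5.03 with sgKeap1-2, and after sitfeb/sitfe3 it was 120.0 ± 12.8, 86.4 ± 2.94 and 79.7 ± 4.47 CPM. In each siRNA, DDI2 of all 8 libraries with a KEAP1 guide was below all 4 of sgCtrl. VCP, the ATPase that draws NRF1 out of the membrane, rose by 0.24 (SE 0.048, adjusted p = 0.00030). The small MAF partners MAFG and MAFK rose by 0.45 and 0.37. SIRT7 lies on the same strand over the 3′ end of MAFG, so reads of the 2 genes may not be separable. BACH1, a repressor at the same sites and counted with GRIK1-AS2, rose by 0.95 (SE 0.14, adjusted p = 8.2e-06). NFE2L1 RNA itself was 79.3 ± 10.4 CPM in siNC sgCtrl, and 73.0 ± 13.7 and 81.8 ± 8.21 CPM with the KEAP1 guides. The RNA level does not measure NRF1 protein or its processing.

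Of 14 ubiquitin and shuttle genes, 4 rose (28.6%) and 1 fell, against 15.2% and 15.6% of all genes. SQSTM1, the autophagy receptor that also binds KEAP1, rose by 1.27 (SE 0.10, adjusted p = 1.6e-10). UBB, a polyubiquitin gene, fell by 0.23 (adjusted p = 0.010). UBA1, the main ubiquitin-activating enzyme, rose by 0.28 and the shuttle factor UBQLN2 by 0.40, with adjusted p of 0.026 and 0.047. Of 7 antigen processing genes tested, none rose and 2 fell in limma-voom, where 15.6% of all genes were lower. NLRC5, a transactivator of MHC class I genes, fell by 0.84 (SE 0.24, adjusted p = 0.0081) at 2 to 19 reads per library, and ERAP2, a peptide-trimming enzyme, fell by 0.46 (SE 0.14, adjusted p = 0.012). Without the pair that stands apart IRF1 also fell, by 0.31 (adjusted p = 0.027).

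**Figure D5:**
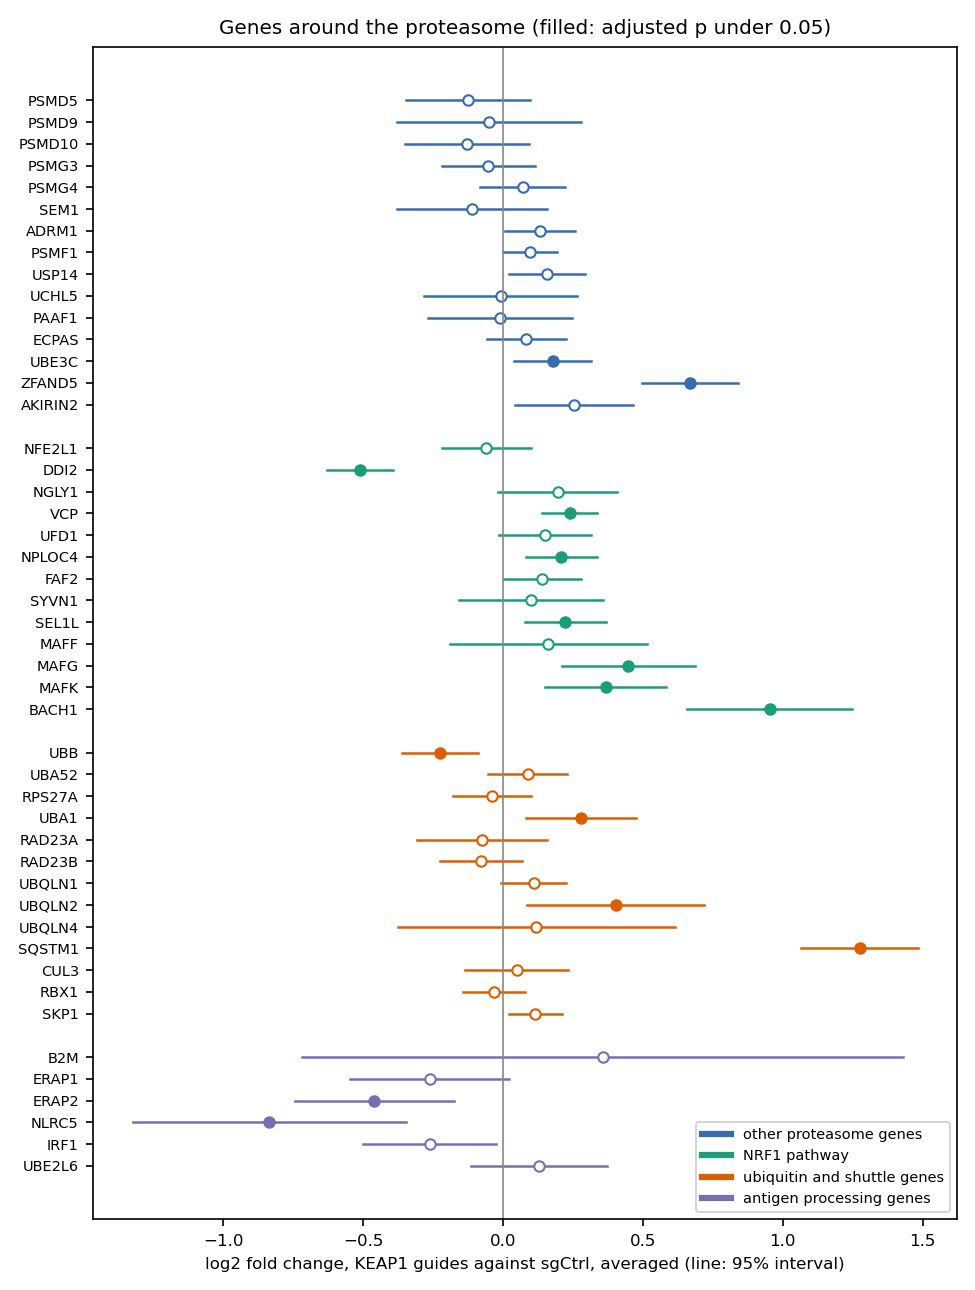
Log2 fold change with the KEAP1 guides, averaged over guides and siRNAs, with 95% intervals, for genes around the proteasome in 4 lists (colours; filled at an adjusted p under 0.05). SQSTM1, BACH1 and ZFAND5 lie farthest to the right among filled points, and DDI2 and NLRC5 farthest to the left.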

How the data were processed

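RNA of 24 HepG2 libraries (6 guide-by-siRNA groups of 4) was profiled by QuantSeq 3′ sequencing. The deposited table holds raw read counts for each gene and library. According to the submitters' processing notes, FastQC (0.72), cutadapt (1.16), STAR (2.7.5b), featureCounts (1.6.3) and limma (3.40.6) were used. These notes name hg38, whereas the study's methods name hg19, so no coordinate was taken from the table. The gene annotation, strand setting and any filter before deposit are not given in the sources used here. The smallest row total was 15 reads. Rows without an Entrez ID (1414 of 13446, with 1.35% to 2.57% of the reads of a library) were left out, 43 rows that shared 20 IDs were summed, and 160 IDs with identical counts were kept as 78 features. This gave 11927 features. Symbols were matched for 11980 of 12009 IDs. Libraries held 3527000 to 4600951 reads (median 4181650.5). Without molecular identifiers the reads need not be independent molecules, so depth bounds counting error only.

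Genes were filtered with filterByExpr by group (11152 kept), scaled by TMM (edgeR 4.0.16) and fitted with limma-voom (limma 3.58.1, R 4.3.3) as 6 group means over all 24 libraries. Tests were two-sided, with Benjamini-Hochberg adjustment over all genes of a comparison and a threshold of 0.05. Levels are CPM of TMM-scaled library sizes. Columns were matched to samples by name, and 0 were unmatched. Alternatives were relative log expression size factors of edgeR, no filter, DESeq2 (1.42.0), the quasi-likelihood test of edgeR, sample quality weights and a replicate block. Others left out each library, replicate 1 of every group or, chosen after seeing the data, the 2 libraries that stand apart. The fits were tested on simulated data. Promoters are from RefSeq (GRCh38.p14), and genes that overlap the last 500 bases of a gene were read from GENCODE v44 lifted to GRCh37.

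The members and gene lists were chosen with earlier results of these data known. Genes named are the check genes, a fixed set of subunits, members that passed in the averaged KEAP1 comparison (at most 15) or in any other, and the 3 members nearest to no change. From each pathway list, genes that passed are named, at most 5 by the smallest adjusted p. NFE2L1 belongs to the check genes. PSMA3, PSMA4, PSMA5, PSMA6, PSMA7, PSMB2, PSMB4, PSMB6, PSMC1, PSMC2, PSMC3, PSMC4, PSMC5, PSMD1, PSMD11, ADRM1, USP14 and IRF1 were named after their values were seen. Some genes of the lists are counted but not reported here by name.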

Additional observations from a re-analysis of the deposited data

Results flagged for a closer look

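In each of 222 sets of 4 libraries (37 members in 6 groups), the gap between the highest or lowest CPM and its nearest neighbour was set against the whole range of the group. The gap passed Dixon's 95% critical value in 14 sets, and chance alone passes it in about 5% of sets. A total of 7 of the 14 fell in the 2 libraries that stand apart. In sgKeap1-1 under siNC replicate 1, PSMA1 was 82.4 CPM (149.7 to 156 CPM in the other 3 libraries of the group), PSMA5 24.2 CPM (74.2 to 77.9 CPM), PSMC1 195 CPM (102 to 118 CPM) and PSMC5 270.4 CPM (173 to 175 CPM). In sgKeap1-2 under sitfeb/sitfe3 replicate 1, PSMA5 was 33.4 CPM (71.1 to 76.8 CPM), PSMC1 320.2 CPM (109 to 121 CPM) and PSME1 434 CPM (287 to 298 CPM). Subunits of the same particle were on opposite sides of their groups within 1 library.

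The other 7 were spread over 6 libraries. In sgCtrl under sitfeb/sitfe3, replicate 4 had PSMA5 at 43.4 CPM (65.7 to 68.1 CPM in the others) and PSMD13 at 94.9 CPM (78.2 to 79.2 CPM), and replicate 1 had PSME2 at 592 CPM (378 to 407 CPM). PSMB1 was 673 CPM in sgKeap1-1 under siNC replicate 4 (553 to 567 CPM). PSMB2 was 162 CPM in sgCtrl under siNC replicate 1 (192 to 196 CPM). PSMC1 was 87.5 CPM in sgKeap1-1 under sitfeb/sitfe3 replicate 2 (119 to 125 CPM). PSMG2 was 44.0 CPM in sgKeap1-2 under sitfeb/sitfe3 replicate 4 (47.6 to 48.2 CPM).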

How the results depend on the processing

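With all libraries 13 members were called in the averaged KEAP1 comparison, and 20 with sample quality weights, 21 without the 2 libraries that stand apart, and 10 to 18 with 1 library left out. For sgKeap1-1 under siNC the count was 3, and it became 1 without the low-count filter, 5 in DESeq2, 6 with weights, 7 without replicate 1 of every group, 5 without the pair that stands apart, and 1 to 8 with 1 library left out. For sgKeap1-2 under siNC it was 2, and it became 4 with weights, 6 without replicate 1, 9 without the pair, and 1 to 3 with 1 library left out. For sgKeap1-1 under sitfeb/sitfe3 it was 3, and it became 9 with weights, 8 without replicate 1, 11 without the pair, and 1 to 5 with 1 library left out. For sgKeap1-2 under sitfeb/sitfe3 it was 8, with 5 to 8 when 1 library was left out, and although the count stayed at 8 without the pair or replicate 1, 2 members were lost and 2 gained in each case. The difference between guides had 0 calls and 1 (PSME2) without replicate 1 of every group. The 3 knockdown comparisons and the interaction had 0 calls under each alternative run. The cause of these shifts was not tested. Members near no change altered sign without passing. PSMA2 went from -0.02 to 0.025 with weights and 0.015 without replicate 1, with -0.080 to 0.018 over single libraries left out. PSMD3 went from 0.00 to -0.00073 without the filter, -0.042 without replicate 1 and -0.056 without the pair, with -0.042 to 0.045 over single libraries. PSMC6 ranged from -0.034 to 0.060 and PSMG1 from -0.0030 to 0.051 over single libraries. Of the 13 called members, PSMA1, PSMB5, PSMB7, PSMD13 and PSME2 lost the call under some alternative, as given beside their values. PSMA6, at 9 to 39 reads per library, is limited by depth.

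Groups share replicate numbers, and same-numbered libraries share a prefix in their description, whose meaning the labels do not give. The deviations of 60 same-numbered pairs of libraries correlated at -0.21 to 0.449 (median 0.061, against -0.027 for different numbers, over 10540 genes). Since 24 of the 60 pairs, not all, were over 0.1, the main fit did not take the numbers to pair samples. That bar cannot exclude a shared effect of the number, and p-values of the main fit leave such an effect out. A total of 15 of 24 libraries correlated best with a library of their own number, a hint from the data and not from the design. The median correlation was 0.175 for pairs of number 1, and 0.043, 0.022 and 0.055 for numbers 2, 3 and 4. With the replicate number as a block, 15 members were called in the averaged comparison (PSMA4 and PSMD1 gained), 5 for sgKeap1-1 under siNC (PSMD2 and PSME4 gained) and 4 for sgKeap1-1 under sitfeb/sitfe3 (PSME1 gained, adjusted p = 0.039), and no member called without the block was lost.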

Other observations

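PSME1 and PSME2, the members that fell, both hold the interferon response element core in their RefSeq windows, starting 6 bases after the start site on the opposite strand in PSME1 and 28 bases before it on the gene's strand in PSME2. Other members with this core were PSMB4, PSMA4 and PSMB8. With all libraries neither PSMB4 nor PSMA4 passed the threshold in limma-voom. Without the 2 libraries that stand apart PSMB4 passed (log2 fold change 0.14) and PSMA4 did not. PSMD3, the member nearest to no change, holds the antioxidant response element core at 2 positions of its window. Among the assembly factors, PSMG1 and PSMG2 hold that core in a window and did not pass, and POMP, which rose, has no match in its window. Sequence beyond the windows was not searched, and whether these matches bear on RNA levels was not tested.

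Of the 40 genes, 20 have at least 1 named pseudogene in RefSeq, and PSMC1 has the most, 13. A gene on the same strand overlaps the last 500 bases of 3 members, and one on the opposite strand does so for 6. How reads of near-identical copies were assigned is not given in the sources used here.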
